A study of Saccharomyces cerevisiae with 8 samples.

Results

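The double transporter mutant of budding yeast was set against wild type on 4 arrays with 2 dye channels, out of 8 arrays in the series. The arrays were chosen by their labels, which name the double mutant and wild type as the hybridised pair, and 6436 genes were described across them. The comparison asks how transcript levels differ when both pumps are disrupted. The double mutant was a Saccharomyces cerevisiae strain carrying pdr5-∆1::hisG and yor1-1::hisG in the SEY6210 background. The wild type was SEY6210, a MATα GAL strain with the alleles leu2-3,-112, ura3-52 and lys2-801 and the deletions trp1-∆901, his3-∆200 and also suc2-∆9, a background the double mutant shares per the labels. Cells of both strains grew in YPD at 30 °C to an OD600 of about 0.6, and their RNA was extracted with hot acidic phenol. The double mutant carried Cy5 on arrays 1 and 3 and Cy3 on arrays 2 and 4. The other 4 arrays of the series paired the double mutant with a strain that also carried pdr1::kanMX4. Whether the arrays came from separate cultures is not said in the labels, so every p-value below measures only the spread between these arrays, and their number limits the precision.

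PDR5 and YOR1 encode ATP-driven pumps that rid the cell of drugs and move lipids across the plasma membrane. Their transcription is driven by the zinc cluster factors Pdr1 and Pdr3, which also drive other transporters and enzymes of membrane lipid metabolism, together called the pleiotropic drug resistance (PDR) regulon. Pdr3 is itself a target of the regulon, and so is RPN4, the transcription factor of the proteasome genes.

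Median intensities ran between 314 and 1042 in the double mutant channels and between 382 and 1300 in the wild type channels. The share of probes well above background was 94.3% to 98.7% in double mutant channels and 95.04% to 98.3% in wild type channels, and 0 spots were saturated. Array 4 stood apart from the others before any test. Its median intensity was 314 in the double mutant and 691 in the wild type channel. On arrays 1 to 3 the like pairs were 461 and 382, 1042 and 1300, and 846 and 765. It had 23 outlying spots, against 1, 4 and 3 on arrays 1 to 3. The SD of the log2 ratios on array 4 was 0.46, against 0.251, 0.28 and 0.236 on arrays 1, 2 and 3. On array 4, 241 genes were at least 2-fold lower in the double mutant, against 6, 16 and 11 genes on arrays 1 to 3. Across genes, which are not independent replicates, the log2 ratios of any array pair correlated with Pearson's r between 0.279 and 0.543. Values are therefore given for each array, and folds and adjusted p-values are from all 4 arrays unless array 4 is said to be left out. Markers of the labelled MATα cell type were present in both strains: the 4 α-specific genes MF(ALPHA)1, MF(ALPHA)2, STE3 and SAG1 stood well above background on all 4 arrays, at percentiles of at least 89.9 in the double mutant channels and at least 87.9 in the wild type channels. HIS3 and SUC2, which carry deletions in both strains, were well above background in 0 of the 4 double mutant and 0 of the 4 wild type channels, and TRP1 in 2 and 2. The 6 a-specific genes of the opposite mating type were also well above background on all 4 arrays in both strains, so that flag does not separate the mating types. Their percentiles were lower, at 6.28 to 16.6 in the double mutant channels and 6.76 to 34 in the wild type channels.

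The 2 disrupted genes moved in opposite directions. PDR5 (YOR153W) had log2 ratios of the double mutant over wild type of -1.14, -1.47, -1.62 and -1.62 on arrays 1 to 4, so every array read lower in the double mutant. It fell 2.76-fold (mean log2 ratio -1.46 ± 0.23, SD, n = 4; adjusted p = 0.0166, limma). Its signal in the double mutant channel nevertheless stood between percentiles 84.1 and 86.1 of all probes, against 92.2 to 93.7 in the wild type channel. YOR1 (YGR281W) had log2 ratios of 2.03, 2.15, 1.75 and 1.83, close together and far above 0 on every array. It rose 3.84-fold in the strain that carries its disrupted allele (1.94 ± 0.18, SD, n = 4; adjusted p = 0.00465). Where the probes of PDR5 and YOR1 lie relative to the disrupted stretches is not given in the sources used here, so neither value checks the genotype.

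The genes beside PDR5 were both above 0 on every array. ATG40 (YOR152C), which encodes an autophagy receptor on the endoplasmic reticulum, had log2 ratios of 1.33, 1.73, 1.43 and 1.02 and rose 2.6-fold (adjusted p = 0.0407). SLP1 (YOR154W), on the other side, had 0.21, 0.41, 0.09 and 0.32 and did not pass (adjusted p = 0.194). The neighbours of YOR1 stayed near 0, at a mean log2 ratio of -0.04 for PXR1 (YGR280C) and -0.05 for BGL2 (YGR282C). Of the 2 regulators, PDR1 itself had log2 ratios of -0.13, 0.4, -0.09 and 0, with no common direction (mean 0.05; adjusted p = 0.848). PDR3 had 0.78, 0.71, 0.54 and 0.21, all above 0 with array 4 lowest. It missed the threshold with all 4 arrays (adjusted p = 0.123) and passed without array 4 (mean log2 ratio 0.68 ± 0.12, SD, n = 3; adjusted p = 0.014).

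Among all genes, 23 were called with the 4 arrays at an adjusted p below 0.05. Of 6436 genes tested, 18 were higher in the double mutant (0.28%) and 5 were lower (0.0777%). The higher genes were RSB1, YAR066W, YHR214W, ICT1, GRE2, YAR068W, YOR1, YGR035C, CIS1, TVS1, ATG40, PDR16, FRE4, LAC1, LAF1, RPN4, KAR2 and MPD1, and the lower ones were PDR5, ERP1, the rDNA probe NTS2-5', SAM3 and COR1. Without array 4 the same test called 255 genes, 122 higher (1.9%) and 133 lower (2.07%), and these included all 23. In that fit the adjusted p of the 23 ran between 0.000175 for ICT1 and 0.0124 for COR1, and the log2 ratio that moved most was that of YAR068W, 2.32 without array 4 against 2.02 with it. That fit has 1 residual degree of freedom per gene, resting on the difference between arrays 1 and 3. Array 2 was its only array with the double mutant in Cy3. It weighed as much in the ratio as arrays 1 and 3 together and added nothing to the residual. A shift of array 2 alone would thus enter the strain term, here and wherever a gene is said to pass without array 4. On array 4 itself, 78 of the 121 higher genes measured there were above 0 and 120 of the 133 lower genes were below 0. The median log2 ratio of all genes on that array was -0.017, so genes at large lay about evenly on either side of 0. Its extremes leaned low, with 241 genes at least 2-fold lower and 47 at least 2-fold higher, so the 2 counts are not alike in weight. The call of 19 of the 23 genes was lost without array 1, and likewise without array 3. In each of those fits 4 genes were called, RSB1, ICT1, YAR066W and YHR214W. The residual there rested on the difference between arrays 2 and 4, so shifts of array 4 entered the spread. Without array 2 the count was 867, which included all 23. Array 4 was then the only array with the double mutant in Cy3, and the residual rested on arrays 1 and 3. Shifts of array 4 thus entered the strain term: SUL1 (log2 ratio -1.83) and NCE103 (-1.92) were called lower there. Without array 4 their log2 ratios were 0.019 and 0.014, so the count without array 2 is no separate check on the 23. With the scanner's processed signals in place of the mean signals, 13 of the 23 were called.

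**Figure D1:**
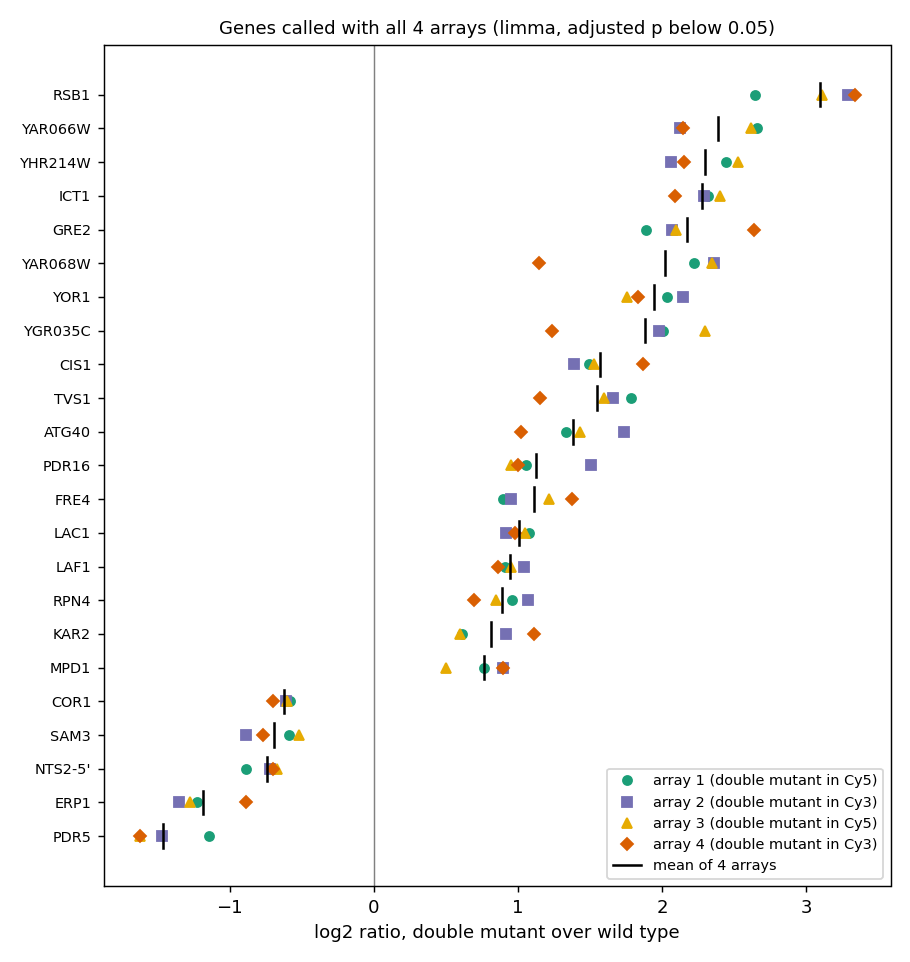
Log2 ratios of the double mutant over wild type (horizontal axis) for the 23 genes called with all 4 arrays, 1 row a gene; symbols are the 4 arrays and vertical bars their mean. All 4 arrays lie on 1 side of 0 for each gene, and array 4 sits well below the other 3 for YAR068W and YGR035C.

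Genes of the PDR regulon were among the highest in the double mutant. Of 24 regulon genes in a list of lipid and enzyme targets, 9 were called higher and 0 lower, against 0.28% and 0.0777% of all genes. Without array 4, 17 of them were called higher, against 1.9% of all genes. Pumps and regulators were counted apart: RPN4 was called with all 4 arrays, and PDR3, SNQ2, PDR15 and TPO1 were not. All 4 arrays were above 0 for 20 of the 24, against 11.1% of 6422 genes measured on every array. The median of the 24 mean log2 ratios was 0.71, against -0.01 over all genes, and the array medians were 0.85, 0.87, 0.8 and 0.51. The list was drawn up from known targets with earlier results of these arrays in view, so its count is a description.

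RSB1 (YOR049C), which exports sphingoid long-chain bases, had log2 ratios of 2.64, 3.29, 3.11 and 3.34 on arrays 1 to 4. This was the highest mean of any gene, and the lowest array was still above 2-fold. RSB1 rose 8.54-fold (3.09 ± 0.32, SD, n = 4; adjusted p = 0.000764), with a signal at percentiles 71.4 to 75.7 in the double mutant channels and 12.5 to 16.1 in the wild type channels. ICT1 (YLR099C), an acyltransferase that makes phosphatidic acid, had 2.32, 2.29, 2.4 and 2.09 and rose 4.84-fold (adjusted p = 0.000764). The 4 arrays of ICT1 lay close together (SD 0.13). GRE2 (YOL151W), a reductase of small aldehydes, had 1.89, 2.07, 2.1 and 2.64, with array 4 the highest, and rose 4.51-fold (adjusted p = 0.00706). YGR035C had 2.01, 1.98, 2.3 and 1.24, with array 4 the lowest, and rose 3.69-fold (adjusted p = 0.0201). CIS1 (YLR346C), which acts in the response to stalled mitochondrial protein import, had 1.49, 1.39, 1.53 and 1.87 and rose 2.97-fold (adjusted p = 0.0124).

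Among the other called genes of the regulon were carriers and enzymes of membrane lipids. PDR16 (YNL231C), a phosphatidylinositol transfer protein, had log2 ratios of 1.05, 1.5, 0.95 and 1, and rose 2.18-fold (adjusted p = 0.0407). LAC1 (YKL008C), a subunit of ceramide synthase, had 1.08, 0.92, 1.05 and 0.98 and rose 2.01-fold (adjusted p = 0.0124). LAC1 varied little between arrays, with an SD of 0.07. LAF1 (YMR102C) had 0.91, 1.04, 0.95 and 0.86 and rose 1.92-fold (adjusted p = 0.019). The sphingolipid enzyme genes IPT1 and SUR2 of the regulon passed without array 4 and not with it. IPT1, which makes the most complex inositol sphingolipid, had 0.47, 0.83, 0.56 and 0.02, and its adjusted p was 0.241 with all 4 arrays and 0.00992 without array 4. SUR2, the hydroxylase of sphingoid bases, had 0.28, 0.67, 0.3 and 0.44, and its adjusted p was 0.105 and 0.0243. The wider lipid pathways had medians nearer to 0. Over 29 sphingolipid genes, LAC1, IPT1 and SUR2 included, the median was 0.1, against -0.01 over all genes. Above 0 on all 4 arrays were 11 of the 29 and below 0 on all 4 were 0, against 11.1% and 13.9% of all genes, and 1 was called higher with all 4 arrays and 3 without array 4, against 0.28% and 1.9%. Over 25 ergosterol genes the median was 0.04, 5 were above 0 on all 4 arrays and 0 below. In the ergosterol list 0 genes were called with all 4 arrays, and the sterol acyltransferase gene ARE2 passed without array 4 (0.85, 0.7, 0.45 and 0.42; adjusted p = 0.0258).

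RSB1 belongs to a small family of membrane proteins with the same fold as RTA1, and 2 other members, chosen with their values seen, read higher on arrays 1 to 3. PUG1, a heme and protoporphyrin transporter, had log2 ratios of 0.92, 1.25, 1.33 and -0.47, so array 4 was on the other side of 0. RTA1 had 0.55, 0.99, 0.86 and 0.56. Both missed the threshold with all 4 arrays (adjusted p = 0.319 for PUG1 and 0.0832 for RTA1) and passed without array 4 (0.00556 for PUG1 and 0.00992 for RTA1). The fourth member measured, YLR046C, had a mean log2 ratio of -0.13.

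Other drug pumps responded unevenly. Of 16 ABC transporter genes, 1 was called higher and 1 lower with all 4 arrays, against 0.28% and 0.0777% of all genes, and these were the disrupted genes YOR1 and PDR5. Without array 4, 4 were called higher and 1 lower, against 1.9% and 2.07%. The median over the 16 was -0.05 with all 4 arrays and 0.01 without array 4. SNQ2, a multidrug pump of the plasma membrane, had log2 ratios of 1.03, 1.5, 0.97 and 0.51, all above 0 with array 4 lowest (adjusted p = 0.105 with all 4 arrays and 0.00117 without array 4). PDR15, the closest relative of PDR5, had 0.6, 0.56, 0.41 and 0.43 (adjusted p = 0.0856 and 0.0243 without array 4). Probes of PDR5 and PDR15 could share signal, since the genes are alike in sequence. Of the 16 drug and polyamine antiporter genes measured, 0 were called with all 4 arrays in either direction, and 2 were called higher and 1 lower without array 4. The polyamine exporter genes TPO1 and TPO2 went opposite ways. TPO1 had 0.99, 0.97, 0.75 and 0.51 (adjusted p = 0.0782 and 0.00568 without array 4), and TPO2 had -1.02, -0.81, -1.18 and -0.43 (adjusted p = 0.0505 and 0.00438 without array 4).

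A pair of near-identical gene pairs at chromosome ends also stood among the highest. YAR066W had log2 ratios of 2.66, 2.13, 2.61 and 2.15 and rose 5.23-fold, and its copy YHR214W had 2.45, 2.06, 2.53 and 2.15 and rose 4.92-fold (adjusted p = 0.000764 for each). YAR068W had 2.22, 2.36, 2.34 and 1.15 and rose 4.05-fold (adjusted p = 0.046). Its copy YHR214W-A had 2.1, 2.31, 2.3 and 1.09, just outside the threshold (adjusted p = 0.0505 with all 4 arrays and 0.000238 without array 4). Arrays 1 to 3 lay close together for the second pair, and array 4 was lower in both copies. Which copy of a pair gave the signal is uncertain, because their probes could hybridise to both transcripts. TVS1 (YCR061W), with 1.79, 1.66, 1.6 and 1.15, rose 2.93-fold (adjusted p = 0.0166).

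Genes of the endoplasmic reticulum (ER) folding machinery were mostly higher in the double mutant. Of 24 genes of the unfolded protein response, 2 were called higher and 0 lower with all 4 arrays, 6 were called higher without array 4, and 17 were above 0 on all 4 arrays, against 0.28%, 0.0777%, 1.9% and 11.1% of all genes. Their median was 0.31, and the array medians of 0.29, 0.32, 0.25 and 0.33 differed little. KAR2, the main Hsp70 chaperone of the ER, had log2 ratios of 0.61, 0.92, 0.6 and 1.11 and rose 1.75-fold (adjusted p = 0.0335). MPD1, a protein disulfide isomerase, had 0.77, 0.89, 0.5 and 0.9 and rose 1.7-fold (adjusted p = 0.0445). SIL1, the nucleotide exchange factor of Kar2, had 0.52, 0.46, 0.73 and 0.68, above 0 on every array (adjusted p = 0.0782 with all 4 arrays and 0.0243 without array 4). The main disulfide isomerase gene PDI1 had 0.49, 0.15, 0.6 and 0.77 and passed neither test (adjusted p = 0.171 and 0.0617). HAC1, whose product is the transcription factor of the response and is controlled by splicing of its mRNA, had 0, -0.12, -0.12 and -0.74 (adjusted p = 0.412).

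Against that direction, ERP1 (YAR002C-A), a p24 cargo receptor of vesicles between ER and Golgi, had log2 ratios of -1.23, -1.35, -1.27 and -0.89. It fell 2.27-fold, low on every array (adjusted p = 0.0275). RPN4 (YDL020C) had 0.96, 1.07, 0.84 and 0.69 and rose 1.85-fold (adjusted p = 0.0445). The proteasome genes it serves were higher as a group by a small amount. Their median was 0.13 over 33 genes, RPN4 itself included, with array medians of 0.12, 0.17, 0.19 and 0.12. The lowest mean of the 33 was -0.01. Above 0 on every array were 13 of the 33 and below 0 on every array were 0, against 11.1% and 13.9% of all genes. Called higher were 1 with all 4 arrays and 1 without array 4, against 0.28% and 1.9% of all genes, and both were RPN4.

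Genes of respiration were lower as a group, by a small amount. Of 37 genes of the respiratory chain and ATP synthase, 35 were below 0 on all 4 arrays, against 13.9% of all genes. With all 4 arrays 1 was called lower (0.0777% of all genes), and without array 4 15 were called lower (2.07% of all genes), with 0 higher in either. The median of the 37 was -0.42, with array medians of -0.36, -0.31, -0.44 and -0.49, so that array 4 lay beside the others here. COR1 (YBL045C), a core subunit of the cytochrome bc1 complex, had -0.58, -0.61, -0.6 and -0.7 and fell 1.54-fold (adjusted p = 0.0479). CYC1, which encodes cytochrome c, had the lowest mean of the list, with -0.52, -0.89, -0.62 and -0.55 (adjusted p = 0.0782 with all 4 arrays and 0.00746 without array 4). HAP4, the regulatory subunit of the transcription factor of respiratory genes, had -0.06, -0.1, -0.12 and -0.59 and passed neither test (adjusted p = 0.392 and 0.467). In RNA from whole cultures, less transcript per cell and fewer cells that carry it cannot be told apart.

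The mitochondrial ribosome showed a like pattern. Of 70 genes for mitochondrial ribosomal proteins, a family chosen after its values were seen, 65 were below 0 on all 4 arrays and 1 above, against 13.9% and 11.1% of all genes. The median was -0.3, and the array medians were -0.24, -0.32, -0.27 and -0.35. With all 4 arrays 0 of the 70 were called, and without array 4 9 were called lower and 0 higher (2.07% and 1.9% of all genes). The genes of the tricarboxylic acid and glyoxylate cycles had a median of -0.26 over 21 genes, with 0 called with all 4 arrays and 2 called lower without array 4, but their array medians of -0.13, -0.26, -0.12 and -0.56 put array 4 lowest. In contrast, the 27 genes of cytosolic ribosome biogenesis had a median of -0.03.

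**Figure D2:**
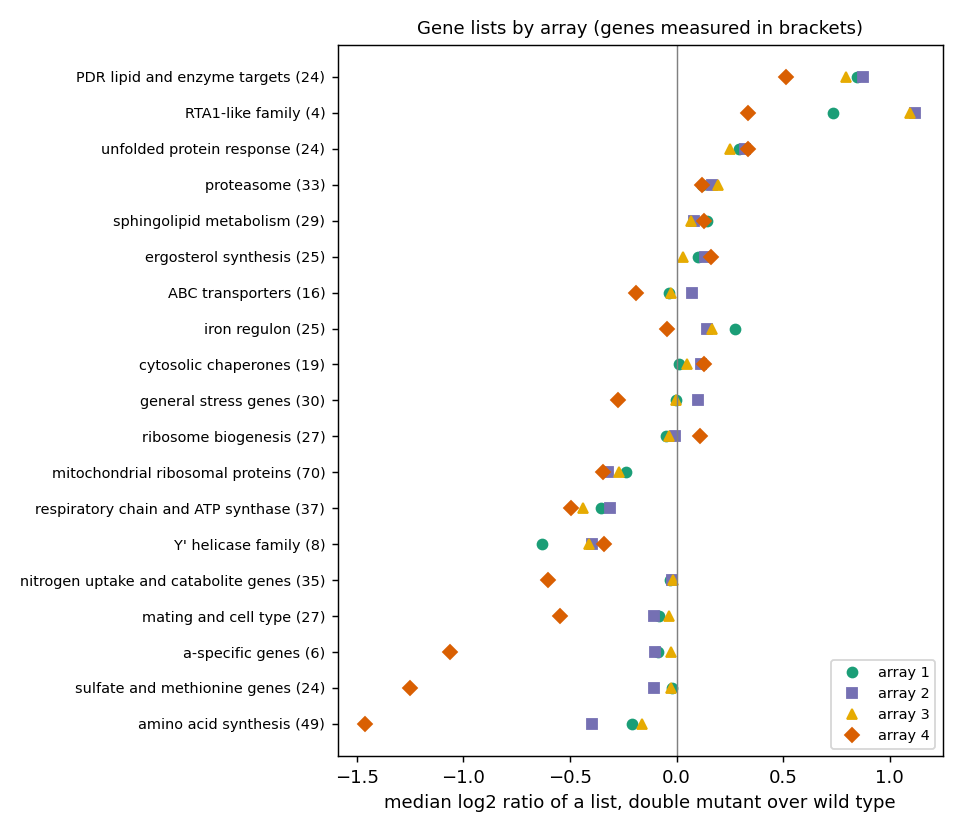
Median log2 ratio, double mutant over wild type (horizontal axis), over the genes of 19 lists on each of the 4 arrays, with the number of genes measured in brackets. The PDR, ER and respiratory lists keep their side of 0 on every array, while the sulfate, a-specific and amino acid lists are far lower on array 4 than on arrays 1 to 3.

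Further called genes stood outside those groups. FRE4, a reductase of iron bound to rhodotorulic acid, had log2 ratios of 0.89, 0.95, 1.22 and 1.37 and rose 2.16-fold (adjusted p = 0.0407). Of 25 genes of the iron regulon, FRE4 included, 1 was called higher and 0 lower with all 4 arrays, against 0.28% and 0.0777% of all genes. Without array 4, 7 were called higher and 1 lower, against 1.9% and 2.07%. The median was 0.09 with all 4 arrays and 0.14 without array 4, and on array 4 itself it was -0.04. The lower one was FTR1, the iron permease, with -0.44, -0.54, -0.37 and -0.78 (adjusted p = 0.0253 without array 4). SAM3, the permease of S-adenosylmethionine, had -0.59, -0.88, -0.52 and -0.77 and fell 1.62-fold (adjusted p = 0.0407). NTS2-5', a probe named for the spacer of the ribosomal DNA, had -0.89, -0.72, -0.67 and -0.7 and fell 1.68-fold (adjusted p = 0.0407). The 8 YRF1 genes, a family chosen after its values were seen, encode a helicase of the subtelomeric Y' repeats and are near-identical copies. They were all below 0 on every array, with means between -0.59 and -0.4. With all 4 arrays 0 of the 8 were called, and without array 4 7 were called lower, against 0.0777% and 2.07% of all genes. The probes of such copies could share their target, so the 8 values are not independent measurements.

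Genes of amino acid biosynthesis were mostly lower in the double mutant, and far lower on array 4. Of 49 genes, 32 were below 0 on all 4 arrays, 0 were called with all 4 arrays, and 13 were called lower without array 4, against 13.9%, 0.0777% and 2.07% of all genes. The array medians were -0.21, -0.4, -0.16 and -1.46. ARG1, argininosuccinate synthetase of the arginine pathway, had log2 ratios of -1.5, -2.06, -1.61 and -4.44, the lowest mean of any gene (-2.4 ± 1.38, SD, n = 4). It missed the threshold with all 4 arrays (adjusted p = 0.105) and passed without array 4 (-1.73 ± 0.3, SD, n = 3; adjusted p = 0.000344). ARG3, ornithine carbamoyltransferase, had -0.83, -1.29, -1.12 and -3.61 (adjusted p = 0.154 and 0.00409 without array 4). ARG4, the next enzyme after ARG1, had -0.72, -0.86, -0.8 and -3.01 (adjusted p = 0.19 and 0.00556 without array 4). For all 3 genes arrays 1 to 3 lay close together below 0 and array 4 lay far lower, its difference from their mean being -2.72 for ARG1, -2.53 for ARG3 and -2.22 for ARG4.

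Other genes with the lowest means behaved in the same way. SNZ1 and its neighbour SNO1, which act in vitamin B6 synthesis, had log2 ratios of -0.79, -1.16, -0.91 and -4.3 for SNZ1 and of -0.67, -1.34, -1.29 and -4.04 for SNO1. Both passed without array 4 (adjusted p = 0.00349 for SNZ1 and 0.0124 for SNO1) and not with it (0.216 and 0.177). ATG41 had -0.76, -1.2, -0.83 and -3.14, ARO5 had -0.83, -0.78, -0.88 and -3.33, and TMT1, a methyltransferase of small organic acids, had -0.42, -0.8, -0.46 and -3.85. All 3 passed without array 4 (adjusted p = 0.00337, 0.00556 and 0.0111 in that order). A mean of -1 or lower was reached by 22 genes with all 4 arrays but by 6 with arrays 1 to 3, whereas a mean of 1 or higher was reached by 18 and 19.

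A second set of genes differed on array 4 alone. Over all genes, the difference of array 4 from the mean of arrays 1 to 3 was at least 1 log2 unit below for 218 and above for 33. These counts also hold genes that were low on every array, such as ARG1 and SNZ1, so they do not give the size of the second set. SUL1, a high-affinity sulfate permease, had log2 ratios of -0.05, 0.09, -0.05 and -3.61. NCE103, the carbonic anhydrase, had 0.08, 0.17, -0.36 and -3.7, and TMA10 had -0.47, -0.15, 0.24 and -3.85. None of these 3 genes passed with or without array 4 (adjusted p between 0.479 and 0.957). Over 24 sulfate and methionine genes, a family chosen after its values were seen, the array medians were -0.02, -0.11, -0.03 and -1.25. Over the 6 a-specific genes, chosen likewise, they were -0.09, -0.1, -0.03 and -1.06. In the other direction, URA1, dihydroorotate dehydrogenase, had -0.39, -0.36, -0.62 and 1.5. Its call turned with the array left out: URA1 was called lower without array 4 (log2 ratio -0.43, adjusted p = 0.0484) and higher without array 2 (0.49, adjusted p = 0.0144), and was not called with all 4 arrays (0.03, adjusted p = 0.977).

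The 2 channels of array 4 were then read separately, as the percentile of a gene's signal among all probes of its channel. SUL1 stood at percentiles 5.5, 6.6, 6.9 and 6.9 in the double mutant channels of arrays 1 to 4, against 6.4, 5.7, 7.6 and 74.8 in the wild type channels. AGA2, a subunit of the a-agglutinin of MATa cells, stood at 6.5, 6.3, 7.1 and 6.5 in the double mutant channels, against 7.6, 6.8, 7.4 and 34 in the wild type channels. For both genes the wild type channel of array 4 was the one that differed. URA1 differed there too, with 90.3, 90.7, 89.9 and 91.1 in the double mutant channels, against 92.1, 92.4, 92.4 and 79.1 in the wild type channels. For TMA10 it was the double mutant channel that stood apart, with 85.6, 86.1, 88 and 39.6, against 85.9 to 92.5 in the wild type channels. ARG1 stood at 46.4, 41.2, 46.6 and 81 in the double mutant channels, against 77.9, 81.3, 78.7 and 98.8 in the wild type channels. Here both channels of array 4 were higher than on arrays 1 to 3. SNZ1 showed this too, with 34.1, 25.8, 21.7 and 50.7 in the double mutant channels, against 54.8, 51.4, 38.9 and 94.7 in the wild type channels. What set array 4 apart was not tested.

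**Figure D3:**
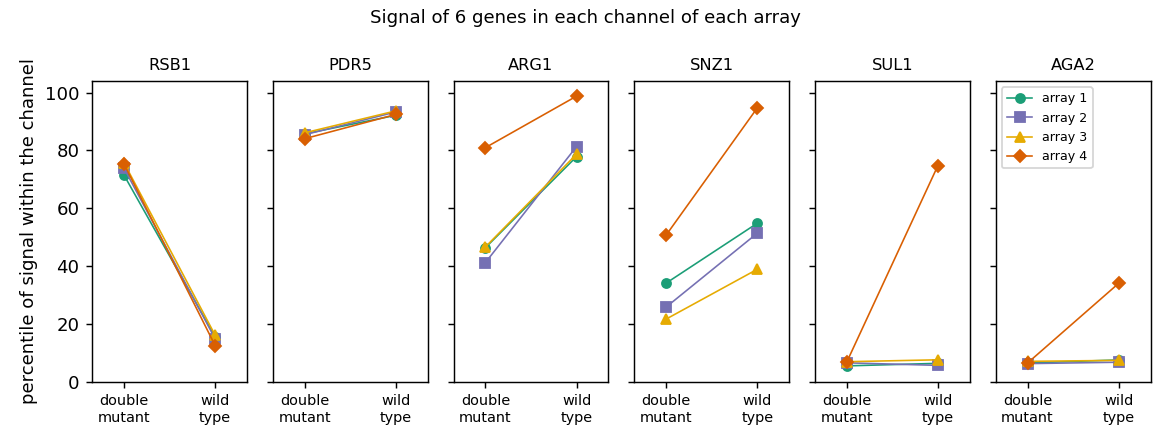
Percentile of the signal of 6 genes within each channel (vertical axis), double mutant left and wild type right, with 1 line an array. RSB1 and PDR5 have nearly the same pair of values on all 4 arrays, while the wild type channel of array 4 stands apart for SUL1 (74.8) and AGA2 (34), and both of its channels do for ARG1 and SNZ1.

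**Figure D4:**
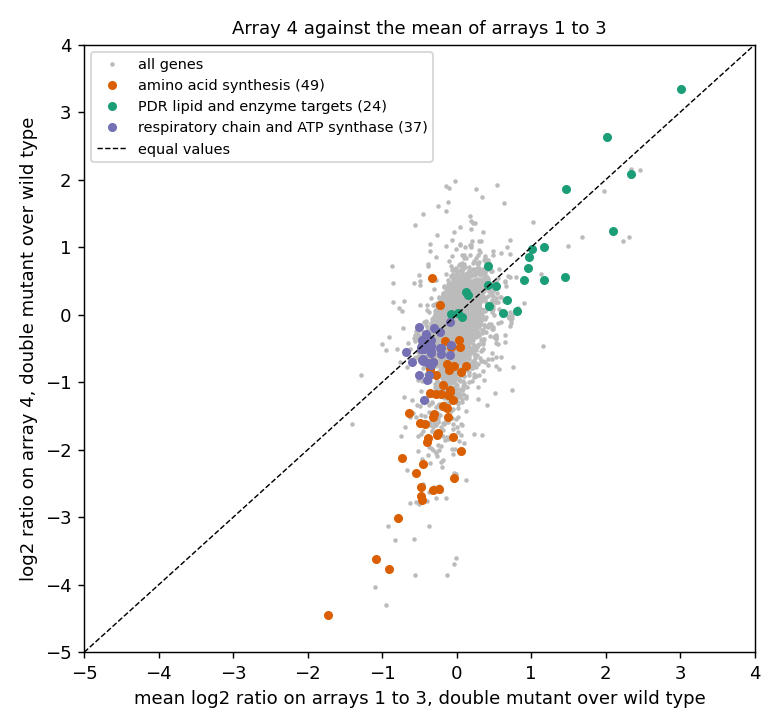
Log2 ratio on array 4 (vertical axis) against the mean of arrays 1 to 3 (horizontal axis), double mutant over wild type, with 1 point a gene and a dashed line of equal values. Respiratory genes lie near the line, with a median of -0.49 on array 4 and -0.4 over arrays 1 to 3. PDR targets have a lower median on array 4 (0.51) than over arrays 1 to 3 (0.85), and amino acid synthesis genes fall far below the line.

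A dye effect was estimated beside the strain effect, since each strain was read in both dyes. Of 6436 genes 0 had a dye coefficient with an adjusted p below 0.05 in limma, and 306 had an unadjusted p below 0.05. Shifts of array 4, 1 of the 2 arrays with the double mutant in Cy3, also enter this coefficient, which was 0.94 for SNZ1 and 0.85 for ARG1. They widen the residual spread too, so a count of 0 does not show that dye effects were absent. The coefficients ran between -0.87 for the tRNA probe tI(GAU)Q and 1.29 for the mitochondrial probe 21S_rRNA-5'. Over 76 tRNA probes, a family chosen after its values were seen, the array medians were 0.22, 0.22, -0.44 and 0.73, with no common direction. The 2 probes of a gene gave like ratios: their mean log2 ratios correlated with Pearson's r of 0.986 over 6361 genes, which are not independent replicates. For 0 of the 23 called genes did the second probe have the opposite sign.

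The channel labelled double mutant on the other 4 arrays of the series did not show these levels. RSB1 stood there at percentiles 26.7 to 29.2, against 71.4 to 75.7 in the double mutant channels described here, and PDR1 at 0.1 to 3.2, against 41.6 to 47.3. With the labelled double mutant over the labelled triple mutant, the log2 ratios of PDR1 there were -2.88, -1.12, -2.81 and -2.63 (mean -2.36 ± 0.83, SD, n = 4), which goes against the labels of those 2 channels, since the triple mutant carries the PDR1 disruption. Array 2 of those arrays stood apart over all genes in both channels. Across genes, its highest Spearman's rho with the same channel of the other 3 arrays was 0.746 in the channel labelled double mutant and 0.73 in the one labelled triple mutant, whereas each of the other 3 reached at least 0.984 in both. For ARG1 the array numbered 4 was the highest there too, with 85.1 in the channel labelled double mutant, against 54 to 58.8 on its arrays 1 to 3. On the 4 arrays against wild type, PDR1 stood at 41.6 to 47.3 in the double mutant channels and 38.1 to 47.2 in the wild type channels and did not separate the strains.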

How the data were processed

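Labelled RNA of the double mutant and wild type was hybridised to 4 of the 8 arrays of 1 slide, read in 1 scan per the file headers, so no slide or scan batch could be tested. The authors extracted the scans with Agilent Feature Extraction 10.7.3.1, and per the file headers the deposited files hold mean, background and processed intensity per spot and channel, with flags for spots well above background or outlying as the other columns used. The 8 value columns of the deposited normalized table were not used, since their names match no array's title.

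Mean intensities were corrected by normexp (offset 50) and scaled by loess within each array with limma 3.58.1 in R 4.3.3, control spots having no weight. Of 13092 probes for 6546 features, a gene kept its brighter probe among those well above background in at least 4 of 8 channel measurements. This left 6436 genes and set aside 110 dim features. RefSeq's table named 5895 of the features, and 651 kept the name on the array.

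Log2 ratios, the double mutant over wild type as the labels give the dyes, were fitted with limma with a strain and a dye term. A gene was called where its p-value, adjusted over all genes by the Benjamini-Hochberg method, was below 0.05. Means and SDs are over the arrays, a group of n = 3 being arrays 1 to 3, and the fit without array 4 weighs both dye orientations equally. The procedure was also run on simulated data. Noise there was independent between genes, with a gene's spread equal on every array, so shifts like those of array 4 were not covered.

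The genes named were the disrupted genes, their regulators and neighbours, the called genes, the 10 highest and 10 lowest means with 1 sign on every array, up to 4 genes and the transcription factors of each list, and the 6 genes most above or below on array 4 and the 3 with the largest dye coefficients in each direction. PUG1 and YLR046C complete the RTA1-like family. Genes and lists were chosen with earlier results of these data known. Some genes the rule takes are not reported here. A search of promoters for motifs was not run, and no sequence was used here.

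Alternatives were other background corrections, processed signals, other scaling within or between arrays, other filters, the mean over probes, no dye term, array weights, dye-swap pairs averaged, all 8 arrays with or without replicate blocks, and leaving out each array. Added after seeing the data were the fits of all arrays with the labels against the triple mutant exchanged, and without array 2 of those.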

Additional observations from a re-analysis of the deposited data

Results flagged for a closer look

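For 65 genes and 37 gene lists the 4 arrays were examined for a value far from the other 3, by the gap to its nearest neighbour as a share of the range, against Dixon's critical value. Chance alone marks about 1 in 20 such sets of 4 where they are not chosen by their values. Here the genes include those named for their difference on array 4, and some lists were chosen after their values were seen. The share marked is therefore a description and cannot be set against that of chance. Of the 102 sets 19 were marked, 14 genes and 5 list medians, and in all 19 the distant value was that of array 4.

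The log2 ratios on array 4, the double mutant over wild type, were far below the other 3 arrays in ARG3 (-3.61), ARG4 (-3.01), SNZ1 (-4.3), ARO5 (-3.33) and TMT1 (-3.85). They were likewise far below in SUL1 (-3.61), NCE103 (-3.7), AGA2 (-1.99) and the phosphate permease gene PHO84 (-1.51), and in the transcription factor genes HAC1 (-0.74) and HAP4 (-0.59). In YAR068W (1.15) and its copy YHR214W-A (1.09) array 4 was above 0 but below the other arrays. URA1 (1.5) was the 1 gene of the 14 with array 4 far above the others.

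Among the lists, the array 4 median was far below the others for the sulfate and methionine genes (-1.25), the a-specific genes (-1.06), the nitrogen uptake genes (-0.605) and the mating and cell type genes (-0.55). It was above the others for 30 genes of the G1 and S phases (0.088).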

How the results depend on the processing

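The count of 23 genes called with all 4 arrays stayed within 1.5 times under 9 alternatives, between 17 and 33. The 33 came from array weights, which were 1.71 for arrays 1 and 3 and 0.583 for arrays 2 and 4. Being equal within a dye orientation, the weights could not single out array 4. It was 62 (33 higher, 29 lower) with arrays scaled to equal spread and 57 (36 higher, 21 lower) with no dye term. Leaving out 1 array gave between 4 and 867 genes: 4 without array 1, 867 without array 2 (211 higher, 656 lower), 4 without array 3 and 255 without array 4. The count of 255 without array 4 was 165 after plain background subtraction, 145 with processed signals (91 higher, 54 lower) and 561 with median centring (221 higher, 340 lower). Fitting the arrays against the triple mutant too, which shares 1 spread per gene, gave 521 genes (202 higher, 319 lower) and 815 without array 4. With the replicate number as a block in that fit the counts were 551 (211 higher, 340 lower) and 1044. Array 2 against the triple mutant stood apart, and without it, an alternative chosen after seeing the data, the counts were 338 and 663, and 416 and 604 with the block. Exchanging the labels on the arrays against the triple mutant, chosen likewise, left each count as it was (521, 815, 551 and 1044, and dye 2 and 84). It had to, since the exchange only turns the sign of those ratios and leaves the fit against wild type unchanged. The equal counts are therefore no check of those labels. The numbers were not taken as pairs. Same-numbered deviations of the ratios correlated with r between -0.18 and 0.174 and those of the channel levels with r between -0.122 and 0.373, with the highest, 0.373 and 0.232, between the arrays numbered 4. The dye coefficient was called for 0 genes, but for 1 after plain subtraction, 2 with processed signals, 12 with median centring, 2 with all 8 arrays, 84 with the replicate block, 6 and 56 in those fits without array 2 against the triple mutant, and between 0 and 400 when 1 array was left out, the 400 without array 2. In 65 genes compared, 11 of 1365 values changed sign, all in genes not called with all 4 arrays. Dropping the dye term, weighting arrays, averaging dye-swap pairs or adding the arrays against the triple mutant alters only the spread. The ratio of a gene measured on all 4 arrays stays the same there, so its sign could not change. Of the reversed values 1 passed, URA1 without array 4 (-0.43, adjusted p = 0.0484), while URA1 passed in the other direction without array 2 (0.49, adjusted p = 0.0144). tI(GAU)Q passed without array 4 in its own direction (-0.37, adjusted p = 0.0484). The reversed genes were PDR1 (-0.0068) and PXR1 (0.25) with processed signals, URA1 (-0.073) with equal spread, and, over fits without 1 array, PDR1 (-0.053 to 0.145), PXR1 (-0.154 to 0.077), BGL2 (-0.104 to 0.013), URA1 (-0.43 to 0.49), tI(GAU)Q (-0.37 to 0.19), NCE103 (-1.92 to 0.014) and SUL1 (-1.83 to 0.019). Of the 23 called genes 4, RSB1, ICT1, YAR066W and YHR214W, were called in all 21 alternatives. The medians of the PDR, unfolded protein response, respiratory, mitochondrial ribosomal and YRF1 lists kept their sign under 5 other background corrections and scalings. Those of the hexose transporters, oxidative stress genes, G1 and S phase genes, G2 to G1 genes, MFS antiporters and α-specific genes, between -0.15 and 0.04, changed sign under at least 1 of them. The causes were not tested. No fit left a further array out beside array 4, since no residual degree of freedom would remain.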

Other observations

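Nutrient transporters and stress genes not described above moved in small sets. Of 17 hexose transporter genes measured, 0 were called with all 4 arrays and 3 were called lower without array 4, against 2.07% of all genes. They were HXT4, with log2 ratios of -0.81, -0.85, -0.59 and -1.8, HXT5, with -0.42, -0.73, -0.61 and -1.45, and HXT2, with -0.6, -0.25, -0.72 and -1.8 (limma's adjusted p = 0.00933, 0.0153 and 0.0296 in that order). All 3 were below 0 on every array with array 4 lowest, while the median over the 17 genes was -0.08. PHO84, the high-affinity phosphate permease, had -0.58, -0.7, -0.59 and -1.51 (adjusted p = 0.00995 without array 4).

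The general stress genes did not move together: 30 genes had a median of -0.02 with all 4 arrays and 0.05 without array 4, where 2 were called higher and 2 lower, against 1.9% and 2.07% of all genes. TSL1, a subunit of the trehalose synthase complex, had 0.65, 1.02, 0.81 and 0.09 and passed without array 4 (adjusted p = 0.00556). Among lists with 0 genes called in either direction, with or without array 4, were the tRNA synthetases (20 genes, median -0.05), cytosolic chaperones (19, median 0.08), oxidative stress genes (23, median -0.01), genes of the G1 and S phases (30, median 0.01), the DNA damage response (17, median 0.04) and the mating genes (27, median -0.2).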
